A study of Mus musculus with 3 samples.

Results

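The genes described here encode receptors for neurotransmitters, and their promoters were read on promoter arrays hybridised with chromatin from C2C12 cells. They were chosen by name on the array alone, as genes whose symbol starts like those of GABA-A, ionotropic and metabotropic glutamate, nicotinic and muscarinic acetylcholine, serotonin, dopamine, adrenergic, glycine or opioid receptors and that have 3 or more probes. The rule took in 89 promoters of 16164 tested, and each of the 89 passed the filter on usable probes. Of these, 86 are receptors by name, and 3 carry a similar name without being one: Grina, Grinl1a and Drd1ip. The study asked which genes the chromatin factor PRDM2 occupies in quiescent muscle precursors. C2C12 is an established mouse myoblast line, and the cells of all 3 arrays were arrested in G0, the resting state outside the cell cycle, by growth in methylcellulose and fixed with formaldehyde. DNA precipitated with an antibody against PRDM2 was compared with its input on 2 arrays, and DNA precipitated with an antibody against H3K9me2, dimethylated lysine 9 of histone H3, was compared with its input on 1 array. Immunoprecipitated DNA (IP) carried Cy5 and input DNA Cy3 on every array, so that a dye effect cannot be told apart from enrichment. No proliferating or differentiated cells and no control antibody were among the arrays analysed here. RNA was not measured, so the cell type of the samples could not be checked against its markers.

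Neurotransmitter receptors are ligand-gated ion channels, built of several subunits around a pore, or G protein-coupled receptors that act through second messengers. Most of their genes are used by neurons and are kept silent in muscle. The exceptions of interest in a muscle line are the subunits of the muscle acetylcholine receptor, the channel of the neuromuscular junction: myoblasts switch on Chrna1, Chrnb1, Chrnd and Chrng as they differentiate, and Chrne replaces Chrng in innervated adult muscle. PRDM2 is a zinc finger protein with a PR domain, related to the SET domain of histone methyltransferases, and has been linked to methylation of H3K9. H3K9me2 is a mark of repressed chromatin.

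A value below is the log2 ratio of IP over input, averaged over the probes of a promoter, where 0 is the median probe of the array. The PRDM2 IP channel was dim, its median probe reaching 1.47 times the signal of negative controls on array 1 and 1.39 times on array 2, while the H3K9me2 IP channel reached 6.44 times. The input channels of these arrays reached 3.48, 4.66 and 6.12 times that signal. The log2 ratio of single probes was higher where their GC content was higher on every array, with Pearson's r of 0.49 and 0.58 on the PRDM2 arrays and 0.32 on the H3K9me2 array over 237203 probes. Each promoter was therefore also set against promoters of like GC content, by subtracting on each array the median of the non-member promoters in the same of 20 GC classes.

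Receptor promoters lay above the median probe on the PRDM2 arrays about as promoters in general did. The median of the 89 members was 0.66 on array 1 and 0.45 on array 2, against 0.58 and 0.43 for all promoters. PRDM2 was higher than the median probe by limma's moderated test (adjusted p under 0.05 over all promoters) at 51 of the 89 members, beside 46.9% of all promoters tested. No member was called lower, where 1.08% of all promoters were. At an unadjusted p under 0.05, 54 members passed in either direction, as did 8884 of the 16164 promoters. The count of 51 turns on where 0 is put. With the median promoter as 0, 17 members were called higher and 5 lower, beside 17.2% and 13.0% of all promoters. With the median of the probes in place of their mean 4 were called higher and none lower, beside 5.69% and 0.0866%. The labels do not say that both PRDM2 arrays came from separate cultures, so a p-value here reflects no more than how far the pair of PRDM2 arrays differed, which may be technical.

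The PRDM2 value followed the GC content of the promoter. Over the 89 members, which share both arrays, Pearson's r between the PRDM2 mean and the GC percentage was 0.73, against 0.64 over all promoters. Of the 23 members with the lowest GC content, 35.3 to 41.7%, 4 were called higher, and of the 22 with the highest, 47.0 to 53.6%, all 22 were. Non-member promoters showed the same rise. In the lowest of the 20 GC classes, with a median GC content of 34.4%, 16.6% of them were called. In the highest class, with a median of 52.7%, 97.3% were. Beside promoters of like GC content the median member lay at 0.04, against 0.01 for all promoters. On that scale limma called 4 members higher, where 3.11% of all promoters were, and 2 lower, where 2.39% were. Both PRDM2 arrays lay above promoters of like GC content for 38 members (42.7%), against 34.5% of all promoters, and both lay below for 27 (30.3%), against 34.4%.

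**Figure D1:**
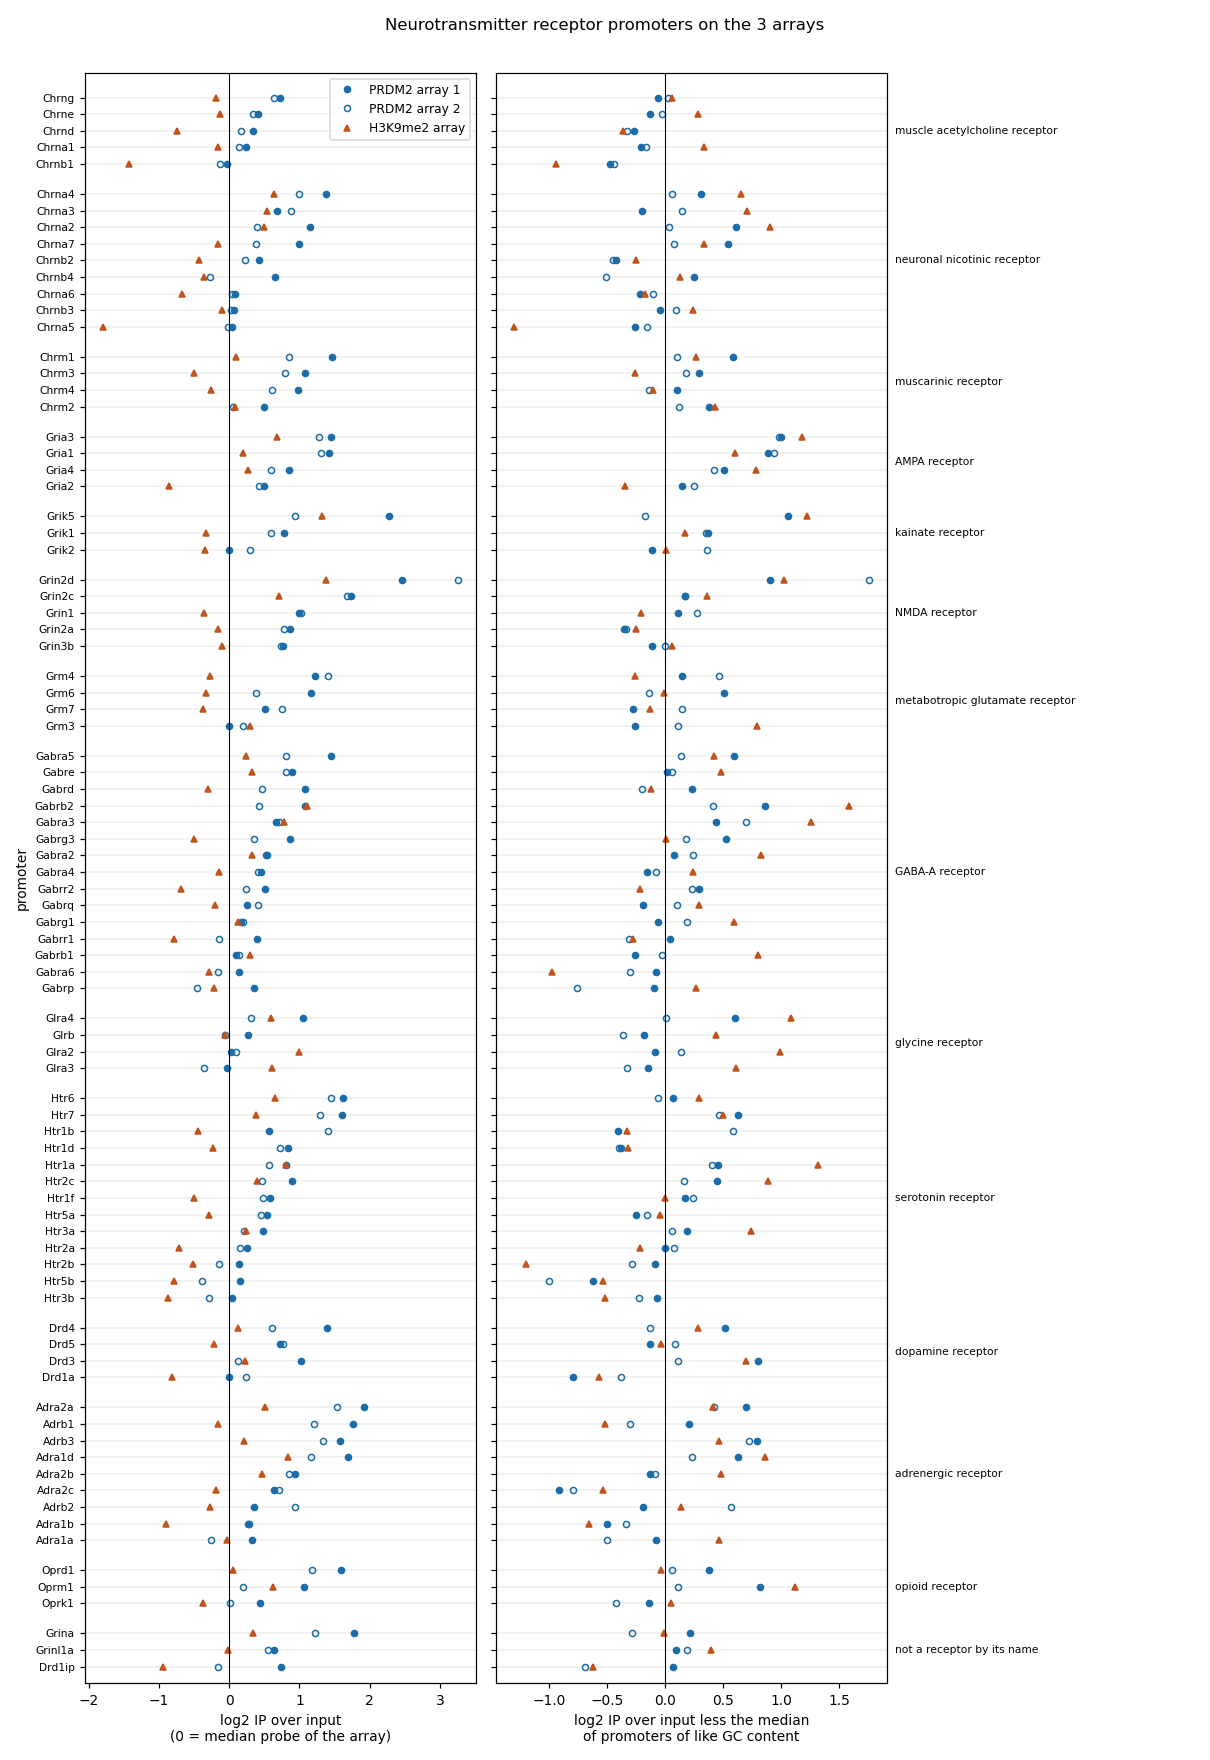
Log2 IP over input of 85 of the 89 promoters, 1 row each, grouped by receptor class; filled and open circles are PRDM2 arrays 1 and 2, triangles the H3K9me2 array. The left panel has the median probe as 0 and the right panel the median of promoters of like GC content; Grin2d reached 2.46 and 3.26 on the left, and the 5 muscle subunits lay between -0.46 and -0.01 on the right as PRDM2 means.

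**Figure D2:**
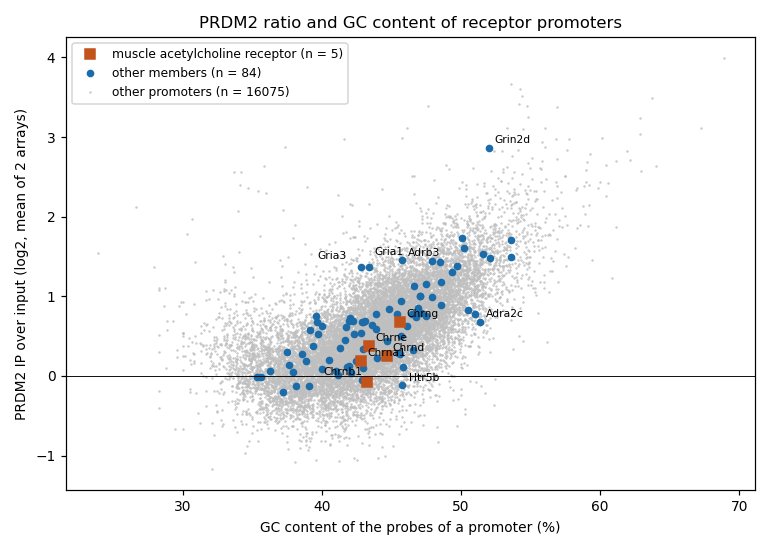
PRDM2 mean of 2 arrays (log2 IP over input) against the GC percentage of the probes of each promoter, for 5 muscle acetylcholine receptor subunits (squares), 84 other members (circles) and 16075 other promoters (grey points). The ratio climbs with GC content, with r of 0.73 over the members, and Grin2d, Gria3, Gria1 and Adrb3 lie above and Adra2c and Htr5b below promoters of like GC content.

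Promoter sequences from RefSeq (build GRCm38.p6, 250 bases before to 50 after the start) were matched by symbol for 66 members, among them 4 of the 5 muscle subunits. These 4 are shown because they are the receptor promoters that muscle cells use; capitals mark E-boxes (CANNTG, bound by myogenic bHLH factors) and, in Chrne, the N-box (CCGGAA, an Ets site known for expression at the synapse), searched on both strands.
Chrna1 promoter, GRCm38.p6 chr2:73580289-73580588, minus strand: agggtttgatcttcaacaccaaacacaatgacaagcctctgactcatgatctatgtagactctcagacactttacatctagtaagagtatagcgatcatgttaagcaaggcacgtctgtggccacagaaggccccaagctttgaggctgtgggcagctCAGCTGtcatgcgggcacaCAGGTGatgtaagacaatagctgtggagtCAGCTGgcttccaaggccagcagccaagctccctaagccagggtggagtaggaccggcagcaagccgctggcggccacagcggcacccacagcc
Chrnb1 promoter, GRCm38.p6 chr11:69795888-69796187, minus strand: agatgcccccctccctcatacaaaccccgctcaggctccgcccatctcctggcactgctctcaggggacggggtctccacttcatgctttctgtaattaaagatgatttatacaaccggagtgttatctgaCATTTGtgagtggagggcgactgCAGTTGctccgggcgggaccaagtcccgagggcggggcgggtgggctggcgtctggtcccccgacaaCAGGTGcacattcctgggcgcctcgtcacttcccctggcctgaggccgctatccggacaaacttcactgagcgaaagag
Chrne promoter, GRCm38.p6 chr11:70619145-70619444, minus strand: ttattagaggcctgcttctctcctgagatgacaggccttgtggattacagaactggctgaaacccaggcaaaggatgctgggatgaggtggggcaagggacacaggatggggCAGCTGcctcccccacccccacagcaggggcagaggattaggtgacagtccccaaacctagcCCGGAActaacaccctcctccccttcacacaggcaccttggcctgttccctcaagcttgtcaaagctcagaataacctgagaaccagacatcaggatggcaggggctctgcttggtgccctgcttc
Chrng promoter, GRCm38.p6 chr1:87205561-87205860, plus strand: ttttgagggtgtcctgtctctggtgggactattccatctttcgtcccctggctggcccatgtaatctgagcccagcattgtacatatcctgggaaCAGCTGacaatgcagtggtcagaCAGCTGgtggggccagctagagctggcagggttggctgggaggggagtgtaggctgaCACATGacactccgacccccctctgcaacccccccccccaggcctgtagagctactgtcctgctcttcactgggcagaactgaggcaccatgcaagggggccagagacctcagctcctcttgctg
The Chrna1, Chrnb1 and Chrng windows each hold 3 E-boxes, and the Chrne window holds 1 E-box and 1 N-box. An E-box of these letters lies in 40 of the 66 member windows (60.6%) and in 72.3% of 32851 RefSeq windows of the same length, and an N-box in 4 member windows (6.06%) and 14.9% of all. The number of CpG dinucleotides was 7, 17, 1 and 2 in the windows of Chrna1, Chrnb1, Chrne and Chrng, where the median member window had 12 and the median window of all 7. A match of letters is a description of the window and not of a bound site.

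The muscle acetylcholine receptor promoters were not called beside promoters of like GC content, where 3.11% of all promoters were called higher and 2.39% lower. Of the 5, 1, Chrng, was called above the median probe, beside 46.9% of all promoters. Chrng encodes the gamma subunit of the embryonic receptor. Its PRDM2 ratio was 0.73 and 0.64 on arrays 1 and 2 and -0.18 on the H3K9me2 array. The PRDM2 mean of 0.68 ± 0.06 (SD, n = 2) passed limma's test at an adjusted p of 0.0149, and it lay at -0.01 beside promoters of like GC content (limma adjusted p = 0.969). Both arrays were thus above the median probe and at the level of promoters with the same base composition. Chrng lost its call with the median promoter as 0 (0.18), with the median of its probes (0.12) and with the GC trend removed (0.44), and turned to -0.17 with normexp background correction and to -0.30 with loess.

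Chrne, the epsilon subunit of the adult receptor, had PRDM2 ratios of 0.42 and 0.34 and an H3K9me2 ratio of -0.13. Its PRDM2 mean was 0.38 ± 0.06 (SD, n = 2; limma adjusted p = 0.14). Chrnd, the delta subunit, had 0.34 and 0.17 on the PRDM2 arrays and -0.75 on the H3K9me2 array. Chrna1, which encodes the subunit that carries the main acetylcholine site, had 0.24 and 0.14 on the PRDM2 arrays and -0.16 on the H3K9me2 array. The PRDM2 means of Chrnd and Chrna1, 0.26 ± 0.12 and 0.19 ± 0.07 (SD, n = 2), had limma adjusted p of 0.316 and 0.455.

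Chrnb1, the beta subunit, had the lowest values of the receptor on both antibodies. Its PRDM2 ratio was -0.02 and -0.14, and its H3K9me2 ratio was -1.43. Beside promoters of like GC content its PRDM2 mean was -0.46 ± 0.02 (SD, n = 2; limma adjusted p = 0.155), one of the 4 lowest of the 89 members. On that scale PRDM2 lay below 0 on both arrays for Chrne, Chrnd, Chrna1 and Chrnb1, and on both sides of 0 for Chrng. The median over the 5 subunits was -0.19, against 0.01 for all promoters. Their input beside promoters of like GC content had medians of 0.22 and 0.50 (log2) on the PRDM2 arrays and 0.66 on the H3K9me2 array. It was above 0 on every array at Chrng, Chrne and Chrnd, and below 0 on every array at Chrna1 and Chrnb1. At Chrnb1 it was -0.27 and -0.35 on the PRDM2 arrays and -0.03 on the H3K9me2 array. The part of input in the ratios was not tested. On Chrnb1, 9 and 8 of 15 probes were well above background in the PRDM2 IP channel, and on Chrng all 19 were on both arrays. For H3K9me2 beside promoters of like GC content, Chrna1, Chrne and Chrng lay above 0, at 0.33, 0.28 and 0.06, and Chrnd and Chrnb1 lay below, at -0.37 and -0.94.

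Single probes of the muscle subunits did not form a block around the start. The probe of Chrng centred at -9.5 bp from the RefSeq start had 4.46 and 2.41 on the PRDM2 arrays and 2.42 on the H3K9me2 array, while the probe at -299 bp had -0.88 and -0.71 on the PRDM2 arrays and -2.48 on the H3K9me2 array. The probe of Chrnb1 at -136 bp, inside the window printed above, had -2.24 and -0.48 on the PRDM2 arrays and -3.74 on the H3K9me2 array. At Chrna1, the probe 153 bp after the start reached 2.93 and 2.26 on the PRDM2 arrays and 1.91 on the H3K9me2 array, while the next probe out, at 260 bp, had -0.81 and -0.33 on the PRDM2 arrays and -1.46 on the H3K9me2 array. The highest probe of Chrne lay 589.5 bp after the start, with 4.34 and 3.24 on the PRDM2 arrays and 0.86 on the H3K9me2 array. High and low probes stood side by side in each of these promoters. No probe of Chrnd could be placed relative to a RefSeq start.

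**Figure D3:**
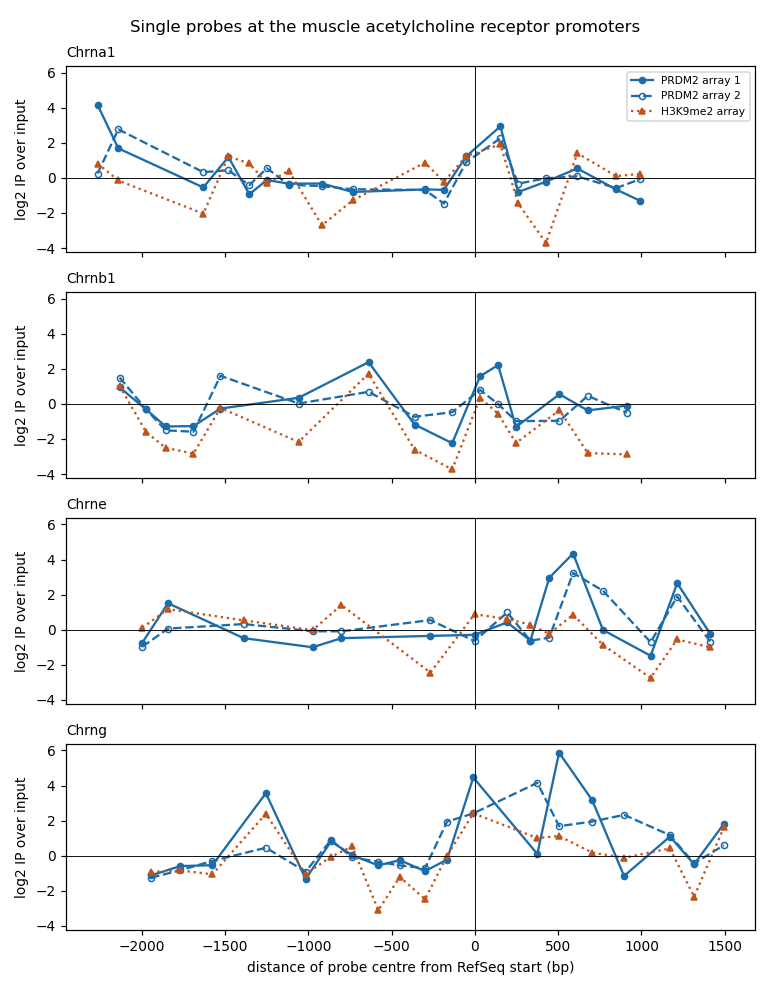
Log2 IP over input of single probes against the distance of the probe centre from the RefSeq start, for Chrna1, Chrnb1, Chrne and Chrng; filled and open circles are PRDM2 arrays 1 and 2, triangles the H3K9me2 array, and lines join neighbouring probes of 1 array. High probes stand close to low ones at Chrng and Chrna1. That of Chrng at -9.5 bp had 4.46 and 2.41 on the PRDM2 arrays. The H3K9me2 array dips below -3 at Chrna1, Chrnb1 and Chrng.

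Among the ionotropic glutamate receptors, 2 AMPA subunits and 1 NMDA subunit were called above promoters of like GC content, where 3.11% of all promoters were. AMPA receptors carry fast excitatory transmission. All 4 of their promoters lay above promoters of like GC content on both PRDM2 arrays, where 34.5% of all promoters did. Gria3 (array design chrX:37643723-37647584) had 1.45 and 1.28 on the PRDM2 arrays and 0.69 on the H3K9me2 array; beside promoters of like GC content its PRDM2 mean was 0.99 ± 0.02 (SD, n = 2; limma adjusted p = 0.0281). Gria1 (array design chr11:56852934-56856747) had 1.43 and 1.31 on the PRDM2 arrays and 0.19 on the H3K9me2 array, and 0.91 ± 0.04 (SD, n = 2; limma adjusted p = 0.034) beside promoters of like GC content. Gria4 had 0.86 and 0.60 on the PRDM2 arrays and 0.27 on the H3K9me2 array, and Gria2, the subunit that sets calcium permeability, was the lowest with 0.49 and 0.42 on the PRDM2 arrays and -0.85 on the H3K9me2 array. The calls of Gria1 and Gria3 were lost with the authors' value table (limma adjusted p = 0.0615 and 0.0656), and Gria1 lay at 0.17 with normexp and 0.15 with loess, not called under either. Gria3 is X-linked, and its input lay at -1.08 and -0.72 (log2) beside promoters of like GC content on the PRDM2 arrays and -0.59 on the H3K9me2 array; the part of this in its ratios was not tested.

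NMDA receptors are glutamate channels that need coincident depolarisation. Grin2d (array design chr7:45733257-45734467) was the highest of the 89 members, with 2.46 and 3.26 on the PRDM2 arrays and 1.37 on the H3K9me2 array. Its PRDM2 mean of 2.86 ± 0.56 (SD, n = 2) had a limma adjusted p of 2.47e-05, and beside promoters of like GC content it lay at 0.91 and 1.76 (limma adjusted p = 0.0247). It rested on 8 probes, of which 3 neighbours with GC contents of 64.4, 66.7 and 71.1% had 4.50, 6.18 and 5.23 on array 1 and 3.36, 6.26 and 5.01 on array 2. With normexp the GC-matched value was 0.38 and not called (limma adjusted p = 0.132). Beside promoters of like GC content the input of Grin2d lay at -0.84 and -0.90 (log2) on the PRDM2 arrays and -1.20 on the H3K9me2 array. The part of this low input in its ratios was not tested. All 5 NMDA promoters were called above the median probe, beside 46.9% of all promoters and 97.3% of non-member promoters in the highest GC class. Not all 5 are in that class. Grin2d is, while Grin3b, of 47.5% GC, is in class 16 of the 20. The lowest of the 5 was Grin3b, with 0.77 and 0.74 on the PRDM2 arrays and -0.10 on the H3K9me2 array. The GC content of the 5 was the highest of the receptor classes, with a median of 50.5%.

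Kainate receptors modulate release and excitability. Grik5 had 2.28 and 0.94 on the PRDM2 arrays and 1.32 on the H3K9me2 array, on 7 probes. The PRDM2 arrays disagreed there, and beside promoters of like GC content they lay on both sides of 0, at 1.06 and -0.17. Grik2 was the lowest of the class, with -0.01 and 0.29 on the PRDM2 arrays and -0.34 on the H3K9me2 array. Metabotropic glutamate receptors are G protein-coupled. Grm4, a presynaptic one, had 1.21 and 1.41 on the PRDM2 arrays and -0.28 on the H3K9me2 array. Of the 5 promoters of this class, 3 were called above the median probe, where 46.9% of all promoters were. None was called beside promoters of like GC content, where 3.11% were.

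GABA-A receptors are the main inhibitory chloride channels of the brain, and 9 of their 18 promoters were called above the median probe, where 46.9% of all promoters were, and none beside promoters of like GC content, where 3.11% were. Gabra5, the highest, had 1.44 and 0.81 on the PRDM2 arrays and 0.24 on the H3K9me2 array. Gabrp, the lowest, had 0.36 and -0.46 on the PRDM2 arrays and -0.22 on the H3K9me2 array. Many of these genes stand in clusters. In that of Gabra2, Gabra4, Gabrb1 and Gabrg1 on chromosome 5, only Gabra2 lay above promoters of like GC content on both PRDM2 arrays, and the median PRDM2 value of the 4 promoters on that scale was -0.03. Their H3K9me2 median on that scale was 0.70, and all 4 lay above 0. Their input lay low beside promoters of like GC content, with medians of -0.56 and -0.25 (log2) on the PRDM2 arrays and -0.74 on the H3K9me2 array; its part in the ratios was not tested. In the X-linked cluster of Gabra3, Gabre and Gabrq, the first and second lay above promoters of like GC content on both PRDM2 arrays, and the medians of the 3 promoters were 0.04 for PRDM2 and 0.48 for H3K9me2.

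Gabrb2 was the member with the highest H3K9me2 beside promoters of like GC content, at 1.58. Its ratios were 1.09 and 0.42 on the PRDM2 arrays and 1.11 on the H3K9me2 array. Its GC-matched PRDM2 mean, 0.64 ± 0.32 (SD, n = 2), missed the threshold (limma adjusted p = 0.0901). Gabra3 had 0.66 and 0.70 on the PRDM2 arrays and 0.78 on the H3K9me2 array, with a GC-matched PRDM2 mean of 0.57 ± 0.18 (SD, n = 2; limma adjusted p = 0.105).

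Glycine receptors are the inhibitory channels of spinal cord and brainstem. Glra4 was the highest, with 1.05 and 0.31 on the PRDM2 arrays and 0.59 on the H3K9me2 array. Glra3, the lowest of the class, had -0.03 and -0.37 on the PRDM2 arrays and 0.62 on the H3K9me2 array. Glra2 had 0.03 and 0.10 on the PRDM2 arrays and 1.00 on the H3K9me2 array. In the PRDM2 IP channel few probes of either gene were well above background, 4 and 7 of 19 at Glra3 on arrays 1 and 2, and 3 of 19 and 0 of 20 at Glra2, so that most of their PRDM2 readings are bounds. In the H3K9me2 IP channel 11 of 19 and 11 of 20 were.

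The neuronal nicotinic subunits form the acetylcholine channels of ganglia and brain. Chrna4, the highest of 9, had 1.38 and 1.00 on the PRDM2 arrays and 0.64 on the H3K9me2 array, and Chrna5 was the lowest with 0.04 and -0.01 on the PRDM2 arrays and -1.80 on the H3K9me2 array. Of its neighbours in the same cluster on chromosome 9, Chrna3 had 0.68 and 0.89 on the PRDM2 arrays and 0.54 on the H3K9me2 array, and Chrnb4 had 0.65 and -0.27 on the PRDM2 arrays and -0.37 on the H3K9me2 array. Among the muscarinic receptors, which are G protein-coupled, Chrm1 was highest with 1.46 and 0.85 on the PRDM2 arrays and 0.10 on the H3K9me2 array. Chrm2, the muscarinic receptor of the heart, was lowest with 0.49 and 0.05 on the PRDM2 arrays and 0.08 on the H3K9me2 array.

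Adrenergic receptors bind adrenaline and noradrenaline, and their 9 promoters held both a called high and a called low member beside promoters of like GC content. Of all promoters, 3.11% were called higher and 2.39% lower on that scale. Adrb3 (array design chr8:28694123-28697628), the beta receptor of fat cells, had 1.58 and 1.33 on the PRDM2 arrays and 0.21 on the H3K9me2 array, and lay 0.76 ± 0.05 (SD, n = 2; limma adjusted p = 0.0486) above promoters of like GC content, a call lost with the authors' value table (limma adjusted p = 0.0606). Adra2c (array design chr5:35593133-35596749), an inhibitory alpha receptor, had 0.64 and 0.72 on the PRDM2 arrays and -0.18 on the H3K9me2 array; it was called above the median probe (limma adjusted p = 0.0153) and yet lay at -0.85 ± 0.09 (SD, n = 2; limma adjusted p = 0.039) beside promoters of like GC content. With 10 and 40 GC classes that value was -0.65 and -0.67 and was not called (limma adjusted p = 0.0545 and 0.0555), and with loess it was -0.07. Adra2a was the highest of the class, with 1.92 and 1.53 on the PRDM2 arrays and 0.51 on the H3K9me2 array, and Adra1a the lowest with 0.33 and -0.26 on the PRDM2 arrays and -0.03 on the H3K9me2 array.

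Serotonin receptors are G protein-coupled except for the channel subunits Htr3a and Htr3b. Htr6 had 1.63 and 1.45 on the PRDM2 arrays and 0.65 on the H3K9me2 array, and Htr3b was the lowest with 0.04 and -0.29 on the PRDM2 arrays and -0.87 on the H3K9me2 array. Htr6 stood at 0.07 and -0.06 beside promoters of like GC content. Htr5b (array design chr1:123354835-123358172) was called lower on that scale, at -0.81 ± 0.27 (SD, n = 2; limma adjusted p = 0.047), from ratios of 0.16 and -0.39 on the PRDM2 arrays and -0.78 on the H3K9me2 array. Of its 15 probes, 7 were well above background in the PRDM2 IP channel of each array. Its call was lost with the authors' value table (limma adjusted p = 0.083) and with normexp, which gave -0.19. Htr1a had 0.80 and 0.57 on the PRDM2 arrays and 0.81 on the H3K9me2 array.

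Dopamine receptors split into those that raise and those that lower cyclic AMP. Drd4 was the highest, with 1.39 and 0.61 on the PRDM2 arrays and 0.12 on the H3K9me2 array. Drd1a, which raises it, had -0.01 and 0.23 on the PRDM2 arrays and -0.82 on the H3K9me2 array, and -0.58 ± 0.29 (SD, n = 2; limma adjusted p = 0.108) beside promoters of like GC content. Of the opioid receptors, Oprd1 had 1.59 and 1.18 on the PRDM2 arrays and 0.06 on the H3K9me2 array, and Oprk1 had 0.43 and 0.02 on the PRDM2 arrays and -0.37 on the H3K9me2 array. Of the 3 names that are no receptors, Grina was highest with 1.78 and 1.22 on the PRDM2 arrays and 0.34 on the H3K9me2 array, and Drd1ip lowest with 0.73 and -0.17 on the PRDM2 arrays and -0.94 on the H3K9me2 array.

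The promoters of Oprd1 and Htr6 are shown because CpG-rich sequence covers their starts and the probes there read high, and capitals mark their CpG dinucleotides.
Oprd1 promoter, GRCm38.p6 chr4:132144437-132144736, minus strand: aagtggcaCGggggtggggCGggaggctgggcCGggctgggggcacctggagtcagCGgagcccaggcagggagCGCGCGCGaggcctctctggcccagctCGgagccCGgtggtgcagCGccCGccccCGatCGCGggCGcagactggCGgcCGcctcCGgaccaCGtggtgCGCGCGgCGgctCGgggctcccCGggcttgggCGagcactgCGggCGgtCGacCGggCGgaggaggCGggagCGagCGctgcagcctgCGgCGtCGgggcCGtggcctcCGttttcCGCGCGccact
Htr6 promoter, GRCm38.p6 chr4:139075521-139075820, minus strand: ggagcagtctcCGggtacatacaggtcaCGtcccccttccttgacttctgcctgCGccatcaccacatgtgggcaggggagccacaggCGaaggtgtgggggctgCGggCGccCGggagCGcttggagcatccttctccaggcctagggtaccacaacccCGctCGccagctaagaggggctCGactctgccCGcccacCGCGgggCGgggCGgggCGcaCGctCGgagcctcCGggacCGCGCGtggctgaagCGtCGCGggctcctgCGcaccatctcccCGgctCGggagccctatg
The Oprd1 window holds 43 CpG and has a GC content of 79.3%, and the Htr6 window holds 29 CpG and 71.0%. The Oprd1 probe at -102.5 bp from the start had 6.07 and 6.66 on the PRDM2 arrays and 3.71 on the H3K9me2 array, and the Htr6 probe 16.5 bp after the start had 5.12 and 5.23 on the PRDM2 arrays and 2.49 on the H3K9me2 array. Further out, the Oprd1 probe at -1003.5 bp, of 38.6% GC, had -1.45 and -1.92 on the PRDM2 arrays and -4.95 on the H3K9me2 array. High probes were not confined to these windows: the Oprd1 probe at 392 bp had 6.79 and 3.86 on the PRDM2 arrays and 3.54 on the H3K9me2 array, and the Htr6 probe at 398.5 bp had 3.62 and 3.23 on the PRDM2 arrays and 1.67 on the H3K9me2 array. The muscle windows printed above hold 1 to 17 CpG.

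Probes were placed against a RefSeq start in 51 members. Apart from the muscle subunits, PRDM2 at these genes was highest in the first 500 bp after the start. The median probe of the receptor genes there, without the muscle subunits, was 1.07 and 1.03 on the PRDM2 arrays, against 1.03 and 1.16 at other promoters, and both sets had a median probe GC content of 51.1%. The muscle subunits had 0.26 and -0.02 in that stretch, over 10 probes of 4 genes with a median GC content of 43.7%. From 500 to 1000 bp after the start they had -0.01 and 0.45, over 11 probes. Once the GC trend of each array was removed, the receptor genes stood at -0.06 and -0.08 in the first 500 bp after the start. The other promoters stood at -0.03 and 0.02 and the muscle subunits at -0.16 and -0.15. From 500 to 1000 bp the muscle subunits then stood at 0.22 and 0.45, the receptor genes at 0.14 and 0.15 and the other promoters at -0.04 and -0.02.

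**Figure D4:**
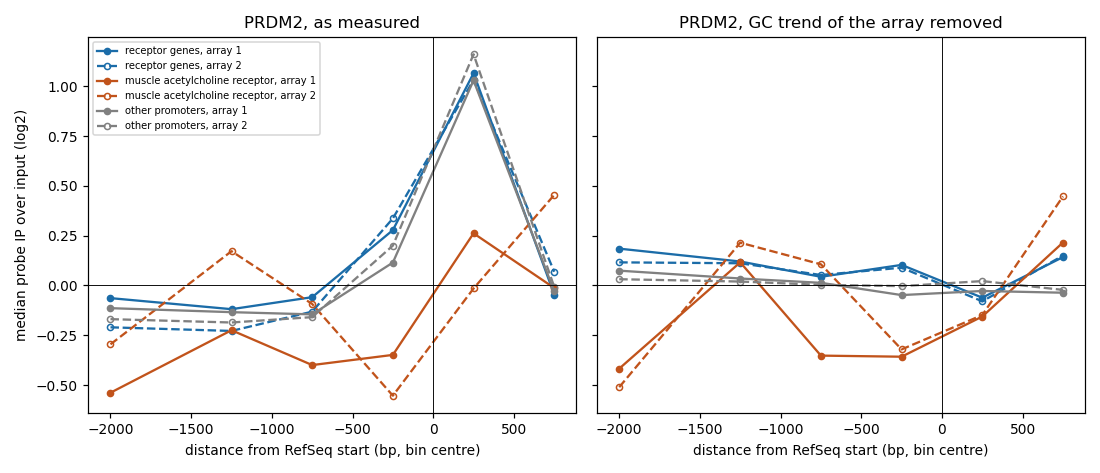
Median PRDM2 log2 IP over input of probes in bins of distance from the RefSeq start (points at bin centres), for receptor genes, muscle acetylcholine receptor subunits and other promoters, on array 1 (solid) and array 2 (dashed). As measured (left), receptor genes and other promoters peak above 1 after the start and the muscle subunits do not; with the GC trend removed (right), receptor genes and other promoters are both within 0.08 of 0 there.

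The highest and lowest probes over 100 bases upstream of the start are shown for Chrna5 and Adra2c, as on the array, because they set high and low readings of 1 promoter beside their sequences; capitals mark CpG.
Chrna5 highest upstream probe, array design chr9:54777475-54777534: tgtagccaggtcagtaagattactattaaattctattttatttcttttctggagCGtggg
Chrna5 lowest upstream probe, array design chr9:54778126-54778178: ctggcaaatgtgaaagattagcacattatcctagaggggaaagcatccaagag
Adra2c highest upstream probe, array design chr5:35593491-35593535: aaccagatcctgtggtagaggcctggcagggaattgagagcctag
Adra2c lowest upstream probe, array design chr5:35593626-35593677: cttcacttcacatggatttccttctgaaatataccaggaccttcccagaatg
The upper Chrna5 probe, of 35.0% GC at -1512 bp, had 4.28 and 3.69 on the PRDM2 arrays and 3.40 on the H3K9me2 array, and the lower one, of 43.4% GC at -864.5 bp, had -1.76 and -1.02 on the PRDM2 arrays and -3.61 on the H3K9me2 array. The upper Adra2c probe, of 55.6% GC at -1913.5 bp, had 2.60 and 3.50 on the PRDM2 arrays and 1.66 on the H3K9me2 array, and the lower one, of 42.3% GC at -1775 bp, had -1.66 and -1.80 on the PRDM2 arrays and -3.17 on the H3K9me2 array. In both genes the probe that was high with PRDM2 was high with H3K9me2, and the low one was low with both. These are extremes picked from each promoter, and over all 1600 member probes r between the H3K9me2 array and the PRDM2 arrays was 0.58 and 0.49.

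Neighbouring probes of the members told little about each other. Over the 1600 member probes, Pearson's r of a probe with its neighbour, a median of 171 bp away, was 0.19 and 0.26 on the PRDM2 arrays and 0.12 on the H3K9me2 array, whereas r of the same probe between both PRDM2 arrays was 0.65. At other promoters the values were 0.16, 0.25, 0.13 and 0.65. No member held a run of 3 or more neighbouring probes above the 95th percentile on both PRDM2 arrays, where 0.266% of all promoters did, and none held such a run on the H3K9me2 array, where 0.643% did. Single probes above both PRDM2 thresholds numbered 34 of 1600 in the members (2.12%), spread over 27 promoters, against 1.74% of 229827 probes at other promoters. Their median GC content was 65.6%, against 41.7% over all member probes. Adrb1 and Oprd1 held 3 such probes each, and Grin2d, Htr6 and Htr7 held 2 each. No muscle subunit held one.

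H3K9me2, read on 1 array and so without a test, had a median of -0.15 over the 89 members, against -0.23 over all promoters, and a range of -1.80 to 1.37. The sign of this median depends on the processing: it was 0.44 with normexp, 0.30 with loess, 0.14 with the median of probes and 0.04 with the GC trend removed, where all promoters had 0.38, -0.00, -0.03 and -0.14. Beside promoters of like GC content the median member lay at 0.24, and 55 of 89 (61.8%) lay above 0, against 8086 of the 16164 promoters. That median was 0.04 with normexp and 0.13 with bright input probes, and 0.18 to 0.36 under the other alternatives that used GC classes. Removing the GC trend keeps 0 at the median probe, so that its 0.04 stands beside the -0.14 of all promoters. On the GC-matched scale the ligand-gated channels had a median of 0.31, with 37 of 50 above 0, and the G protein-coupled receptors -0.01, with 17 of 36 above 0. The X-linked members, all above 0, are channels except for Htr2c. GC-matched input on the H3K9me2 array had a median of -0.30 (log2) at the channels and -0.14 at the G protein-coupled receptors. The part of either in this contrast was not tested. The 4 highest members on the GC-matched scale were Gabrb2 at 1.58, Htr1a at 1.32, Gabra3 at 1.25 and Grik5 at 1.22. These were above promoters of like GC content on PRDM2 array 1, and all but Grik5 were on array 2 as well. Over the members r between PRDM2 and H3K9me2 on that scale was 0.62, against 0.58 over all promoters.

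The 7 X-linked members, Gria3, Gabra3, Gabre, Gabrq, Glra2, Glra4 and Htr2c, were all above promoters of like GC content on the H3K9me2 array, with a median of 0.99. Other X promoters (534) had a median of 0.62, with 87.8% above 0, and autosomal promoters -0.02. The input channel of the X-linked members was itself lower than at promoters of like GC content, with medians of -0.92 and -0.70 (log2) on the PRDM2 arrays and -0.65 on the H3K9me2 array. Other X promoters had input medians of -0.77, -0.75 and -0.75. PRDM2 had a GC-matched median of 0.31 at X-linked members and of 0.32 at other X promoters. The part of the low input in the ratios of X-linked members was not tested; without them the H3K9me2 median of the 82 autosomal members was 0.15 beside promoters of like GC content.

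**Figure D5:**
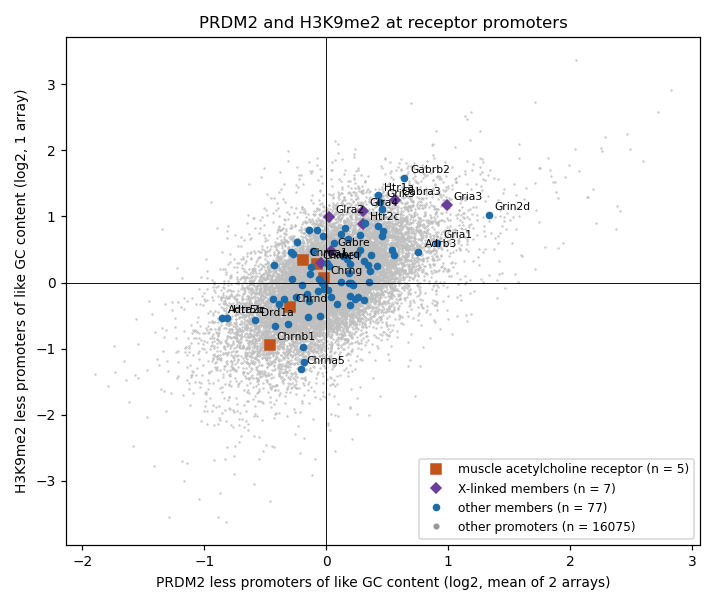
PRDM2 (mean of 2 arrays) and H3K9me2 (1 array), both as log2 IP over input less the median of promoters of like GC content, for muscle acetylcholine receptor subunits (squares), X-linked members (diamonds), other members (circles) and other promoters (grey points). The X-linked members all lie above 0 on the H3K9me2 axis, Chrnb1 and Chrna5 lie low on it at -0.94 and -1.30, and Grin2d is the member farthest right, at 1.33.

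The difference of PRDM2 minus H3K9me2 was fitted in limma; having no replicate, the H3K9me2 array was assumed to vary as the PRDM2 arrays do. PRDM2 was higher at 33 of 89 members, beside 41.1% of all promoters, and lower at 1, beside 1.6%. Both PRDM2 arrays lay above the H3K9me2 array at 71 members and below it at 7, a count made over members only. The difference itself was above 0 at 82 of the 89 members and at 14545 of the 16164 promoters. Among members with both arrays on 1 side, Chrna5 (1.81 ± 0.34, SE; limma adjusted p = 0.0119), Adrb1 (1.65 ± 0.37, SE; limma adjusted p = 0.014) and Grm4 (1.59 ± 0.35, SE; limma adjusted p = 0.0134) had the largest differences above 0. At Chrna5 PRDM2 itself lay near the median probe, at 0.04 and -0.01, and H3K9me2 lay at -1.80 on its 1 array. Adrb1, the beta receptor of the heart, had 1.76 and 1.21 on the PRDM2 arrays and -0.16 on the H3K9me2 array. At the other end, Glra2 had -0.93 ± 0.34 (SE; limma adjusted p = 0.0477), with no probe well above background in the IP channel of PRDM2 array 2 and an input of -1.22, -1.17 and -1.55 (log2) beside promoters of like GC content (the H3K9me2 array last), and the part of both in this difference was not tested. The next were Glra3 at -0.81 (limma adjusted p = 0.0781) and Gabrb2 at -0.35 (limma adjusted p = 0.436). Of the muscle subunits, Chrnb1 (1.35 ± 0.34, SE; limma adjusted p = 0.0174) and Chrnd (1.00 ± 0.35, SE; limma adjusted p = 0.0388) were called higher in PRDM2 than in H3K9me2. The PRDM2 ratios of Chrnb1 were themselves below 0, at -0.02 and -0.14. These calls depend on the zero of each array. With the median promoter as 0 the counts were 0 higher and 2 lower, beside 0.736% and 3.03% of all promoters. An alternative chosen after seeing the data set each array against promoters of like GC content. No promoter of the 16164 was then called, with 9 members and 2037 of all promoters at an unadjusted p under 0.05. PRDM2 array 2 and the H3K9me2 array share a scan day and array 1 has another; within the shared day the median difference over members was 0.60, against 0.75 with both PRDM2 arrays.

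Other genes of the synapse were read in the same way. Of the neuromuscular junction partners, 10 of 16 promoters were called above the median probe, beside 46.9% of all promoters, and none beside promoters of like GC content, with a median of 0.64 as measured and -0.06 GC-matched. Ache, which encodes acetylcholinesterase, was the highest with 1.49 and 2.03 on the PRDM2 arrays and 0.70 on the H3K9me2 array, and Utrn, which encodes utrophin, the lowest with -0.42 and -0.30 on the PRDM2 arrays and -1.15 on the H3K9me2 array. Rapsn, the anchor of the muscle receptor, had 0.72 and 0.90, and Musk, the kinase that organises it, had -0.02 and 0.04. Of the postsynaptic scaffolds and auxiliary subunits 13 of 25 promoters were called above the median probe, beside the same 46.9%, from Cacng4, an AMPA receptor auxiliary subunit, with 1.93 and 1.23, to the second promoter of Grip1, a scaffold, with -0.13 and -0.34. Beside promoters of like GC content only Shank3, a scaffold, was called in that list, at -0.79 (limma adjusted p = 0.0451). Of the genes for transmitter synthesis and transport 18 of 31 were called above the median probe, again beside 46.9%, and none GC-matched, from Pnmt, which makes adrenaline, with 2.21 and 0.98, to the glutamate transporter gene Slc1a2 with -0.20 and -0.53. The GC-matched medians of these lists, -0.06, -0.00 and 0.03, compare with 0.04 for the receptor genes and 0.01 for all promoters.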

How the data were processed

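Promoter arrays with 2 colours of G0-arrested C2C12 cells were used, 2 for PRDM2 and 1 for H3K9me2. Per the file headers, the processed intensity of each channel had been detrended, background-subtracted and dye-normalized by Feature Extraction, and the deposited mean and local background intensity of each spot were unnormalized. The log10 ratio the authors deposited is red over green processed signal and served as a check. The authors' deposited value table holds log2 IP over input; its centring is unknown, and its columns had medians of 0.12, 0.10 and 0.28. Probe coordinates are the array design's, of a build that the sources used here do not name.

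Log2 ratios of processed intensity were taken for 237203 probes, outlier spots were left out and arrays were centred on the median probe. Probes of 1 gene name formed a promoter, split at gaps over 10000 bp, and promoters with fewer than 3 usable probes on an array were dropped. Promoter means were tested with limma 3.58.1 in R 4.3.3 over all 16164 promoters with Benjamini-Hochberg adjustment at 0.05; the script was tested on simulated data. GC-matched values subtract class medians of non-member promoters. Probes were placed against RefSeq starts (GRCm38.p6) by matching their sequences to RefSeq promoter windows, which reached 51 members. The number of arrays, 3, limits the precision. Members and gene lists were chosen with earlier results of these data known. Named genes are the muscle subunits, the 6 highest and 4 lowest members of GC-matched PRDM2, the 4 highest of GC-matched H3K9me2, the 3 with the largest difference each way, members with a run of high probes, and the highest and lowest of each class and list; Gria4, Gabra2, Gabra4, Gabrb1, Gabrg1, Gabre, Gabrq, Chrna3, Chrnb4, Htr2c, Htr7, Rapsn, Musk and Shank3 were added after their values were seen. Some genes are not reported here one by one, though counts and medians include them. Alternatives covered the zero, background correction, loess, dim probes, probe summaries, the value table, GC corrections and single arrays.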

Additional observations from a re-analysis of the deposited data

How the results depend on the processing

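Members called against the median probe on the PRDM2 arrays numbered 51 higher and 0 lower as reported, 17 and 5 with the median promoter as 0 (all promoters 17.2% and 13.0%), 19 and 3 with loess (20.3% and 7.05%), 13 and 0 with the GC trend removed (13.6% and 0.959%), 4 and 0 with the median of probes (5.69% and 0.0866%), 82 and 0 with the highest 3 neighbouring probes (82.8% and 0.0371%), and 0 and 0 with normexp, under which no promoter of the array was called. Beside promoters of like GC content they numbered 4 higher and 2 lower, 3 and 0 with normexp, 16 and 7 with loess (all promoters 15.0% and 13.6%), 1 and 0 with the value table, 8 and 2 with bright input probes (5.86% and 4.02%), 0 and 0 with the median of probes, 22 and 2 with the highest 3 (11.5% and 9.95%), and 4 and 1 with either 10 or 40 GC classes. Removing the GC trend keeps 0 at the median probe and is counted only with the settings before these. Members had a median of 19 probes per promoter and all promoters 15. The GC classes do not match promoters on the number of probes. The part of this in the counts with the highest 3 was not tested. PRDM2 minus H3K9me2 was called higher at 33 members and lower at 1 (all promoters 41.1% and 1.6%). The counts were 0 and 2 with the median promoter as 0 (0.736% and 3.03%), and 1 and 7 with loess (2.70% and 8.35%). They were 13 and 0 with the value table (22.7% and 1.16%), and 1 and 0 with the GC trend removed (2.43% and 1.15%). With bright input they were 39 and 0 (47.9% and 1.03%). No promoter of the array was called with normexp, with the median of probes, with the highest 3 or less the median of promoters of like GC content, the last chosen after seeing the data. Runs of high probes were in 0 members, and in 4 (4.49%) at the 90th percentile, where 2.38% of all promoters held one. Against the median probe, normexp turned Chrng to -0.17; loess turned Chrng to -0.30, Chrnd to -0.47, Grik5 to -0.0178, Drd4 to -0.10, Chrm1 to -0.15, Grina to -0.41 and Drd1ip to -0.87; the GC trend turned Adra2c to -0.29; the median of probes turned Adra2c to -0.0420 and Gabra3 to -0.0605; and the highest 3 turned Glra3 to 1.49 and Htr3b to 1.25. The highest 3 takes the largest mean of 3 neighbouring probes in a promoter, which raises values by its making. Its median against the median probe was 2.07 over all promoters and 2.55 over members, above the values of Glra3 and Htr3b. The highest 3 turned Adrb1 to 1.34 beside promoters of like GC content. For PRDM2 minus H3K9me2, normexp turned Adrb1 to -0.27, Grm4 to -0.55 and Glra2 to 0.78. The cause of the other changes was not tested. With 1 PRDM2 array left out there were no residual degrees of freedom and so no test; the median member then lay at 0.45 to 0.66, and at 0.60 to 0.85 for the difference. No paired analysis was possible because the H3K9me2 array carries no replicate number and the 2 PRDM2 arrays form 1 group. The dim PRDM2 IP channel, and 1 array for H3K9me2, limit what small differences can show.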
